A study of Rattus norvegicus with 12 samples.

Results

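The genes described here are 10 genes of T cells and natural killer (NK) cells, measured in the right lungs of rats: the NK receptor genes Klrb1a and Klrd1, the cytotoxic granule genes Nkg7, Prf1, Gzma and Gzmb, the kinase gene Lck, the CD3 chain genes Cd3e and Cd3d, and the co-receptor gene Cd8a. They were taken as every probe set of the array whose annotation names that single gene. This gave 14 probe sets for the 10 genes, out of 14217 genes named singly on the array. Of these probe sets 11 were bright enough to be tested, at least 1 for each of the 10 genes, and each gene is given by its brightest one unless stated. Rats of 2 strains, Dahl Salt Sensitive (SS) and Brown Norway (BN), which the study calls parents, were labelled either HTV, an abbreviation the labels do not spell out, or control. The description of every array, controls included, mentions ventilation and room air, so the labels do not settle whether the controls were ventilated, and each difference below is between the labels HTV and control. The groups, with 3 Affymetrix arrays each, were SS HTV, SS control, BN HTV and BN control. All animals weighed 250 to 350 g, the lung vessels of all were flushed with buffered saline before freezing, and neither age nor sex is stated. The whole lung was extracted, so the genes report on lymphocytes left in the flushed tissue among all other lung cells.

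NK cells and cytotoxic T cells kill other cells by releasing granules. Perforin, the product of Prf1, opens the target membrane, and granzymes, serine proteases such as those of Gzma and Gzmb, enter and start cell death. T cells recognise antigen through the T cell receptor, whose signal passes through the CD3 chains to the kinase Lck, and CD8 on cytotoxic T cells holds the receptor to class I histocompatibility molecules. In rats CD8 alpha is also carried by many NK cells, and NKR-P1A, the product of Klrb1a, marks NK cells. The lung holds many NK cells and T cells in its vessels and walls.

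Levels are the deposited linear intensities. Each difference was taken after adding 16 to the intensity and converting to log2, a scale that shrinks the changes of dim probe sets, and is followed by its standard error from limma. A difference passed the test at an adjusted p below 0.05, with p-values adjusted by Benjamini-Hochberg over all 18625 probe sets tested. The p-values measure the spread between these arrays. The 12 arrays had the same trimmed mean of about 150 and medians of 58.6 to 68.1, and surfactant and other type 2 cell genes summed to 15690 to 23387, so lung tissue was present on each. SS control 3 stood apart: its correlation with its own group (mean r = 0.950) and its array weight (0.287) were the lowest of the 12. A gap of over 1.5 log2 units divided the other 5 SS arrays from the BN arrays at 35 of the tested probe sets, and at 13 of these SS control 3 was nearer to the BN mean. This happened at 0 such probe sets for each of the other 11 arrays. The 5-prime to 3-prime signal ratio of beta-actin, a measure of RNA integrity, was also the lowest of the SS arrays in SS control 3. It was -1.41 in log2 there, -0.51 in SS control 1 and -0.23 in SS control 2, and -1.47 to -0.88 in the BN arrays. A fit with this ratio as a covariate over the arrays is given below. The part of RNA integrity in the values of SS control 3 itself was not tested. SS control 3 was the lowest of its group in 10 of the 10 genes, and the counts and differences of the 10 genes that turn on it are given with and without it. Leaving it out therefore raises the SS control mean of each of these genes. The shares of all probe sets given below are from the fit of all 12 arrays. None is given beside the counts without SS control 3, which therefore cannot be set against one.

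With HTV, 6 of the 10 genes fell over both strains together and none rose. The average of the SS and BN differences was -0.84 ± 0.19 for Prf1 (adjusted p = 0.0101), -0.81 ± 0.13 for Klrb1a (adjusted p = 0.00101), -0.68 ± 0.10 for Gzma (adjusted p = 0.000491), -0.67 ± 0.16 for Klrd1 (adjusted p = 0.0128), -0.60 ± 0.12 for Lck (adjusted p = 0.00462) and -0.50 ± 0.15 for Nkg7 (adjusted p = 0.0382). The falling genes were both NK receptor genes, 3 of the 4 granule genes and the kinase gene. Gzmb at 0.00 ± 0.20, Cd3e at -0.13 ± 0.13, Cd3d at -0.01 ± 0.12 and Cd8a at -0.35 ± 0.15 did not pass (adjusted p = 0.127 to 0.996). Among all probe sets tested 8.71% were called lower in this comparison. The median difference of the 10 genes was -0.55, beside -0.02 over all genes tested. The 6 HTV arrays lay wholly below the 6 control arrays for 2 of the 10 genes, Klrb1a and Klrd1, as they did for 3.52% of all probe sets. Without SS control 3 the genes past the test were these 6 and Cd8a. The mean differences were then -1.04 for Prf1, -0.94 for Klrb1a, -0.82 for Klrd1, -0.74 for Gzma, -0.71 for Lck, -0.62 for Nkg7 and -0.50 for Cd8a. In tissue RNA of this kind, fewer cells of a type and less RNA per cell cannot be told apart.

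The promoters of 4 genes that fell over both strains together and of Gzmb, which did not pass, are shown as examples. In BN alone the Gzma difference by limma was -0.18 (adjusted p = 0.534). Each is the 250 bases before the gene's annotated start in RefSeq, build GRCr8, read 5′ to 3′ on the gene's strand. They lie at chr2:46485697-46485946 on the minus strand for Gzma, chr20:29788790-29789039 on the plus strand for Prf1, chr4:163590148-163590397 on the minus strand for Klrb1a, chr1:102981247-102981496 on the plus strand for Nkg7 and chr15:34462470-34462719 on the minus strand for Gzmb. Capitals mark matches, on either strand, to any of 5 short motifs.
Klrb1a: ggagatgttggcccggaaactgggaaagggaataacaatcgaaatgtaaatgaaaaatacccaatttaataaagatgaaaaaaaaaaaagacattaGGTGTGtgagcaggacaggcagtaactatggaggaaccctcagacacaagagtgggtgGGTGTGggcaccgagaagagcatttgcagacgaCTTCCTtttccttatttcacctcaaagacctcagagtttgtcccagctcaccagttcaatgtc
Nkg7: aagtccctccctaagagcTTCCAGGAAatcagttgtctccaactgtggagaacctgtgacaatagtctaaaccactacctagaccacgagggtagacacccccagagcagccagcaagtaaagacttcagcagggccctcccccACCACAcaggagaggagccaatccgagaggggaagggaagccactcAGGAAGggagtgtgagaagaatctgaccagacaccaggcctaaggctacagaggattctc
Prf1: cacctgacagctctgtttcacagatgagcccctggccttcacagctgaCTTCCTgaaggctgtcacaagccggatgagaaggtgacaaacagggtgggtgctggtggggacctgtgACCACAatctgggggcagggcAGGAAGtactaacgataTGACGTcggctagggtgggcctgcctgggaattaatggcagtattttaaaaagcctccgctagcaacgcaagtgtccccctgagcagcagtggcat
Gzma: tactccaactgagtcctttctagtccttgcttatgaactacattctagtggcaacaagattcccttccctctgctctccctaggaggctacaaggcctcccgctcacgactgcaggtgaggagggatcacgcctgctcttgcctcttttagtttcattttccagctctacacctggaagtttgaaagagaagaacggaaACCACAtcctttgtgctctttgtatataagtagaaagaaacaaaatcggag
Gzmb: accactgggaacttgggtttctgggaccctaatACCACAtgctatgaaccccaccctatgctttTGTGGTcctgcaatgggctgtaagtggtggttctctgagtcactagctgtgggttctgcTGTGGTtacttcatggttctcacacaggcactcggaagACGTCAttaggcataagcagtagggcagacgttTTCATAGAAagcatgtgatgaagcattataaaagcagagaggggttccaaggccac

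The motifs were AGGAAG for ETS factors, TGTGGT for RUNX factors, GGTGTG for T-box factors, TTCNNNGAA for STAT factors and TGACGT for factors binding the cyclic AMP response element (CRE). The last of these was picked after the sequences had been seen. RefSeq promoter entries were matched for 9 of the 10 genes, all but Klrd1, with 2 starts for Lck. An ETS match lay in the window of 6 of the 9 genes (Klrb1a, Nkg7, Prf1, Lck, Cd3e and Cd3d) and in 29.5% of all 33469 rat promoter windows of the same length. A RUNX match lay in 5 of 9 (Nkg7, Prf1, Gzma, Gzmb and Lck) and in 14.5% of all windows. STAT matches lay in 3 of 9 (Nkg7, Gzmb and Cd3d; 7.67% of all windows), CRE matches in 3 of 9 (Prf1, Gzmb and Cd3e; 6.95%) and T-box matches in 1 of 9 (Klrb1a; 15.4%). The Prf1 window held matches to 3 of the motifs, with ETS matches beginning 202 and 113 bases before the start, a RUNX match at 134 and a CRE match at 96. In the Gzmb window there were 3 RUNX matches, at 217, 186 and 127, a STAT match at 56 and a CRE match at 89, whereas the Gzma window held a RUNX match at 51 and nothing else searched for. RUNX matches were thus found both in genes that fell and in Gzmb. A match is a run of letters and says nothing of binding.

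Klrb1a encodes NKR-P1A, a lectin-like receptor of rat NK cells. Its intensity was 92.6, 79.4 and 87.7 in SS HTV lungs, against 206.7, 227.0 and 123.0 in SS control lungs. It was 57.6, 51.5 and 71.6 in BN HTV lungs, against 107.4, 113.3 and 98.6 in BN control lungs. In each strain all HTV arrays lay below all control arrays, and Klrb1a fell in both, by -0.94 ± 0.19 in SS (adjusted p = 0.0089) and by -0.69 ± 0.19 in BN (adjusted p = 0.0451). It was the only one of the 10 genes to pass the test in both strains. The call in BN did not hold under every setting: it passed in 13 of 24, with an adjusted p of up to 0.154, while that in SS passed in 24 of 24. NKR-P1 receptors form a family of similar genes, and signal from a relative on this probe set was not tested.

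Klrd1 encodes CD94, which pairs with NKG2 receptors on NK cells and some T cells. It had 117.6, 93.0 and 103.1 in SS HTV lungs, against 238.9, 259.2 and 128.8 in SS control lungs. In BN it had 90.7, 64.6 and 121.0 in HTV lungs, against 133.6, 140.3 and 125.2 in control lungs. HTV and control arrays did not overlap in either strain, although the highest BN HTV array, replicate 3, came close to the lowest BN control array. Klrd1 fell by -0.85 ± 0.23 in SS (adjusted p = 0.0379), a call that passed in 13 of 24 settings, with an adjusted p of up to 0.127. In BN the difference of -0.50 ± 0.23 did not pass (adjusted p = 0.248).

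Nkg7 encodes a membrane protein of cytotoxic granules. It had 155.3, 130.0 and 174.9 in SS HTV lungs, against 310.8, 275.5 and 170.2 in SS control lungs, and 137.2, 91.9 and 164.6 in BN HTV lungs, against 173.3, 175.1 and 162.3 in BN control lungs. The groups of each strain overlapped, in SS because SS control 3 lay level with the HTV arrays, and in BN because BN HTV 3 lay within the range of the controls. The differences of -0.63 ± 0.21 in SS (adjusted p = 0.0861) and -0.37 ± 0.21 in BN (adjusted p = 0.368) did not pass singly. Over both strains Nkg7 passed in 13 of 23 settings, with an adjusted p of up to 0.0852.

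Prf1, the perforin gene, had 187.9, 206.2 and 178.4 in SS HTV lungs, against 516.9, 447.8 and 197.7 in SS control lungs. In BN it had 155.3, 104.4 and 183.4 in HTV lungs, against 296.8, 266.1 and 239.6 in control lungs. The BN groups did not overlap, and in SS only SS control 3 lay within the HTV range. The differences were alike in the strains, at -0.86 ± 0.27 in SS (adjusted p = 0.0716) and -0.82 ± 0.27 in BN (adjusted p = 0.106). Neither passed singly, and their mean passed. Without SS control 3 the SS difference was -1.27 and passed (adjusted p = 0.00193).

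Gzma, which encodes the trypsin-like granzyme A, had 124.1, 141.6 and 107.7 in SS HTV lungs, against 303.5, 349.9 and 260.8 in SS control lungs. The means were 124 ± 17.0 and 305 ± 44.6 (SD, n = 3 each). In BN it had 99.9, 82.3 and 106.0 in HTV lungs, against 102.6, 109.1 and 120.5 in control lungs, with means of 96.1 ± 12.3 and 111 ± 9.06 (SD, n = 3 each). The 3 SS control arrays stood above the other 9 arrays, SS control 3 included, and those 9 arrays covered a narrow range in which the BN groups overlapped. Gzma fell by -1.19 ± 0.14 in SS (adjusted p = 0.000288), in 24 of 24 settings. The BN difference was -0.18 ± 0.14 (adjusted p = 0.534).

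Gzmb encodes granzyme B, which cuts after aspartate and activates caspases. It had 188.9, 188.0 and 339.9 in SS HTV lungs, against 253.0, 248.1 and 158.4 in SS control lungs, and 137.7, 60.2 and 73.7 in BN HTV lungs, against 68.0, 100.5 and 111.9 in BN control lungs. HTV and control arrays overlapped in both strains, and SS HTV 3 was the highest of the 12. The differences were 0.09 ± 0.28 in SS (adjusted p = 0.873) and -0.08 ± 0.28 in BN (adjusted p = 0.914). The 95% interval of their mean ran from -0.43 to 0.43, so a fall of the size seen for Prf1 lay outside it. A second Gzmb probe set gave 0.23 in SS (adjusted p = 0.627) and 0.04 in BN (adjusted p = 0.959), and it followed the first over the 12 arrays (r = 0.88). A further probe set naming Gzmb together with another gene was not used.

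Lck encodes the kinase that phosphorylates the CD3 chains, and it is also present in NK cells. It had 250.9, 226.8 and 234.7 in SS HTV lungs, against 413.0, 450.0 and 272.4 in SS control lungs, and 183.1, 150.6 and 196.6 in BN HTV lungs, against 324.0, 262.6 and 239.6 in BN control lungs. The groups did not overlap in either strain. Lck fell by -0.61 ± 0.17 in SS (adjusted p = 0.0448), a call that passed in 13 of 24 settings, and the BN difference of -0.59 ± 0.17 missed the threshold (adjusted p = 0.0609).

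Cd3e and Cd3d encode chains of the CD3 complex, which T cells carry on their surface and NK cells do not. Cd3e had 55.6, 77.1 and 87.6 in SS HTV lungs, against 71.4, 88.6 and 53.7 in SS control lungs, and 61.9, 51.0 and 46.0 in BN HTV lungs, against 72.7, 73.7 and 59.4 in BN control lungs. Cd3d had 77.9, 62.4 and 56.9 in SS HTV lungs, against 72.0, 62.2 and 58.0 in SS control lungs, and 49.2, 63.7 and 83.5 in BN HTV lungs, against 66.3, 73.1 and 60.6 in BN control lungs. For both genes HTV and control arrays overlapped in each strain. In SS the differences were 0.04 ± 0.18 for Cd3e and 0.03 ± 0.16 for Cd3d, and in BN they were -0.30 ± 0.18 and -0.04 ± 0.16 in that order (adjusted p = 0.394 to 0.941). The 95% intervals of the mean over both strains were -0.40 to 0.14 for Cd3e and -0.26 to 0.24 for Cd3d. The 2 genes did not follow each other over the 12 arrays (Pearson r = -0.30, and -0.41 for deviations from the group means). Their mean levels lay near the 50th percentile of all probe sets (50.6 and 50.4). Whether these probe sets follow the T cell content of the lungs was not tested. A second Cd3e probe set, too dim to be tested, had 32.8 to 42.4 in SS HTV lungs, against 36.0 to 50.7 in SS control lungs, and 18.6 to 27.6 in BN HTV lungs, against 23.8 to 38.5 in BN control lungs.

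Cd8a, the alpha chain of CD8, had 64.9, 70.4 and 67.2 in SS HTV lungs, against 104.8, 124.0 and 55.3 in SS control lungs, and 30.0, 26.8 and 31.5 in BN HTV lungs, against 50.1, 32.7 and 44.6 in BN control lungs. In BN all HTV arrays lay below all controls, and in SS the groups overlapped because SS control 3 was the lowest of the 6. The differences of -0.35 ± 0.21 in SS and -0.35 ± 0.21 in BN did not pass (adjusted p = 0.315 and 0.383). Without SS control 3 the SS difference was -0.64 and passed (adjusted p = 0.0351). A Cd8a probe set too dim to be kept differed by -0.83 in SS and -0.61 in BN in a limma fit without the filter. Neither passed (adjusted p = 0.208 and 0.436). The remaining Cd8a probe set, also dim, differed by -0.02 in SS and -0.08 in BN.

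**Figure D1:**
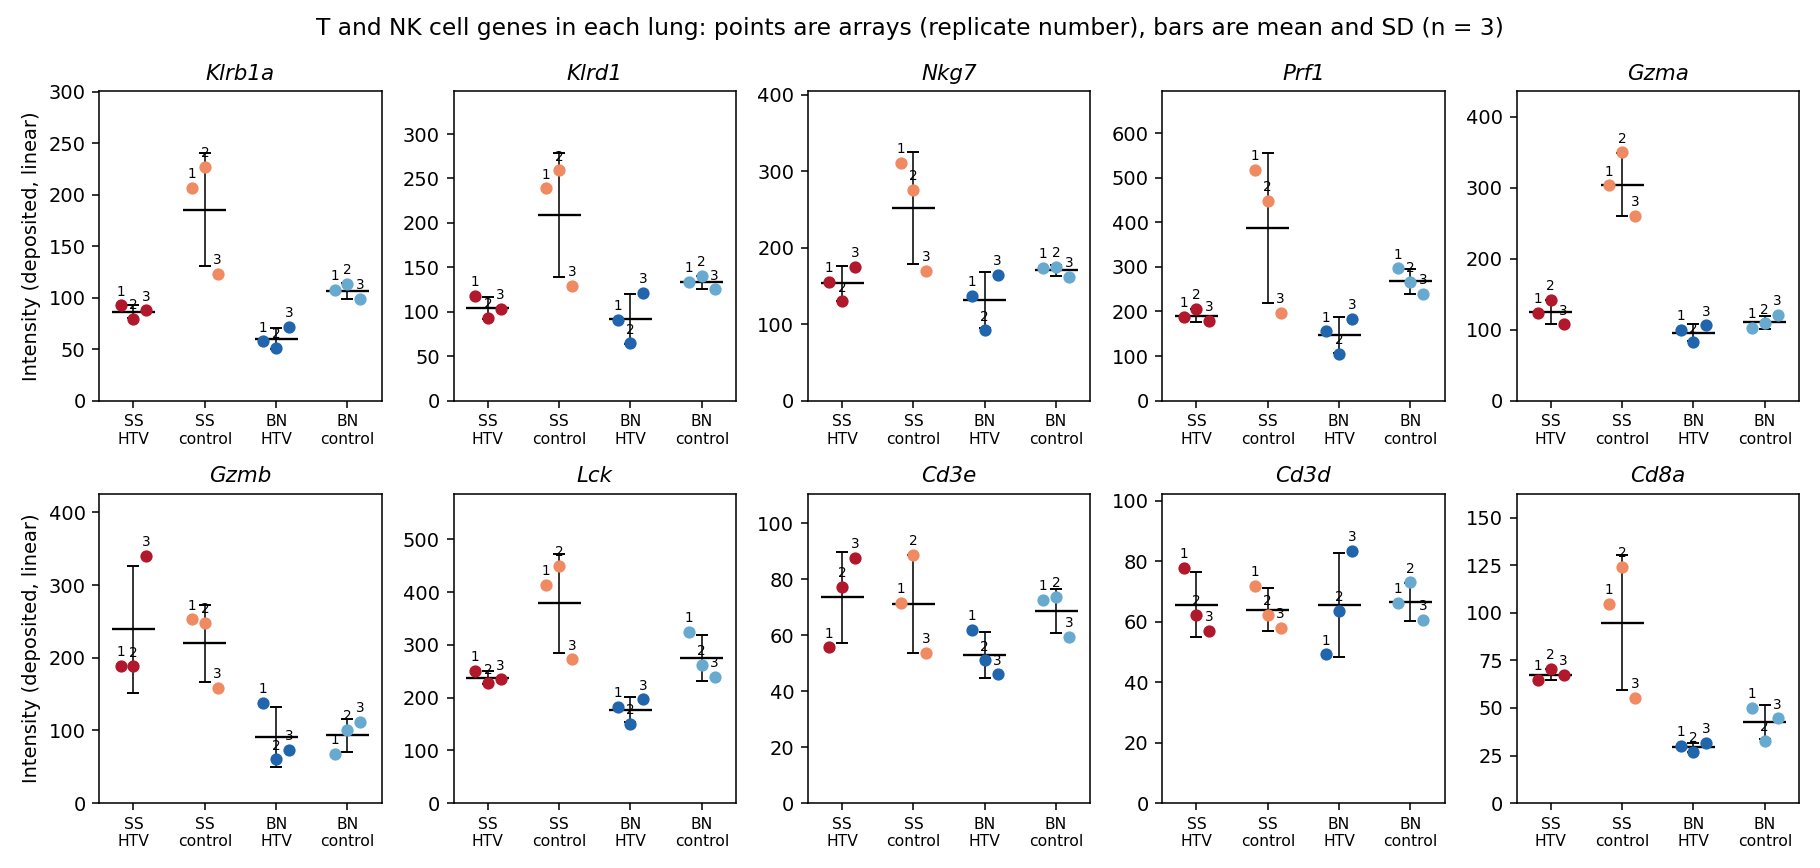
Deposited linear intensity (vertical axis, from 0) of the 10 T and NK cell genes in each of the 4 groups, with 1 point per array labelled by its replicate number and the mean and SD of 3 arrays as bars. SS control 1 and 2 stand above the other arrays for Klrb1a, Klrd1, Nkg7, Prf1 and Lck, all 3 SS control arrays do so for Gzma, and the Cd3e and Cd3d groups overlap.

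Taken singly, the SS comparison called 4 of the 10 genes lower (Gzma, Klrb1a, Klrd1 and Lck) and none higher, where 4.16% of all probe sets were called lower. HTV arrays lay wholly below control arrays for the same 4 genes, and for 15.8% of all probe sets. The count changed when single arrays were left out. Without SS control 3 it was 7, with Prf1, Nkg7 and Cd8a added, and the SS differences were -1.29 for Gzma, -1.18 for Klrb1a, -1.14 for Klrd1, -0.87 for Nkg7 and -0.82 for Lck. Without SS control 1, SS control 2, any of the 3 SS HTV arrays, BN control 2, BN control 3 or BN HTV 1 it was 2. Leaving out a BN array does not change the SS differences, only the spread estimated over all groups. Gzma and Klrb1a passed in 24 of 24 settings, the fit with the beta-actin ratio as a covariate included. The BN comparison called 1 of 10 lower, Klrb1a, where 2.86% of all probe sets were. BN HTV arrays lay wholly below BN control arrays for 5 of 10 genes (Klrb1a, Klrd1, Lck, Prf1 and Cd8a) and for 15.7% of all probe sets. The number past the test in BN was 3 without SS control 3, with Lck and Prf1 added. It was 0 leaving out any 1 of the 3 SS HTV or the 3 BN control arrays. The same held without SS control 1, BN HTV 1 or BN HTV 2. Leaving out an SS array likewise changes only the spread in the BN comparison. Within BN HTV, replicate 3 was the highest in 8 of the 10 genes and replicate 2 the lowest in 8.

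**Figure D2:**
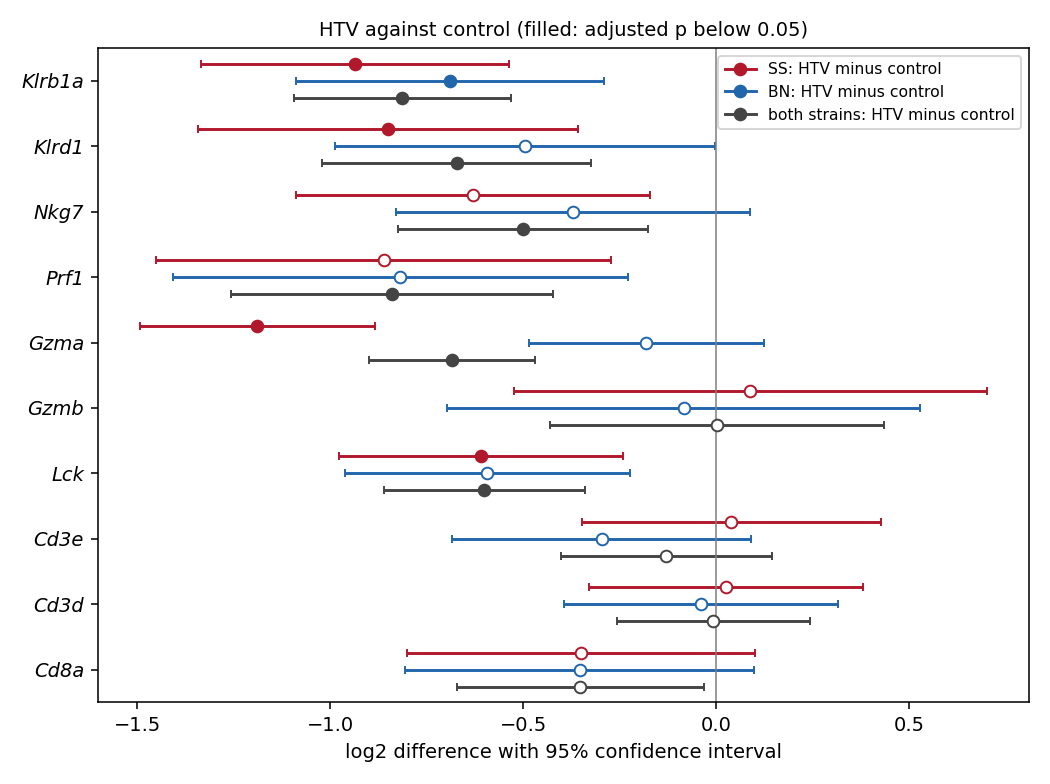
HTV minus control differences of the 10 genes on the log2(intensity + 16) scale (horizontal axis) with 95% confidence intervals, in SS lungs, in BN lungs and as the mean of both strains; filled points passed the test. Klrb1a is filled in each of the 3, while Gzmb, Cd3e and Cd3d lie near 0 in SS lungs.

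Whether the HTV difference itself differed between the strains was tested as an interaction. It passed for 0 of the 10 genes by limma, and for 0% of all probe sets, of which 1551 had an unadjusted p below 0.05. For Gzma the HTV difference in SS was lower than that in BN by 1.01 on the log2 scale (-1.01 ± 0.20, 95% interval -1.44 to -0.58, unadjusted p = 0.000205, adjusted p = 0.528). It ranked 3 of 18625 by p, and lay between -1.11 and -0.84 in all 23 settings, none of which passed. The interval of the same quantity was -0.88 to 0.79 for Prf1, -0.54 to 0.51 for Lck and -0.81 to 0.32 for Klrb1a. For Prf1 it thus held values as large as the HTV differences themselves, and for Klrb1a values as large as the BN difference (-0.69). The SS and BN comparisons share no arrays.

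In control lungs 4 of the 10 genes were higher in SS than in BN: Gzma by 1.33 ± 0.14 (adjusted p = 9.5e-05), Gzmb by 1.10 ± 0.28 (adjusted p = 0.0246), Cd8a by 0.88 ± 0.21 (adjusted p = 0.0178) and Klrb1a by 0.68 ± 0.19 (adjusted p = 0.031). Among all probe sets 5.84% were called higher. The arrays of the strains did not overlap for the same 4 genes, with SS higher, and for 15.5% of all probe sets. Klrd1 (0.54), Nkg7 (0.49), Lck (0.42) and Prf1 (0.41) did not pass (adjusted p = 0.126 to 0.342). They passed without SS control 3, when the count was 8 and their differences were 0.63 for Lck to 0.83 for Klrd1, while those of the other calls were 1.43 for Gzma, 1.31 for Gzmb, 1.16 for Cd8a and 0.93 for Klrb1a. The count was 1, Gzma, without SS control 1, SS control 2 or BN control 2, and 2 without BN control 1. The second Gzmb probe set did not pass (0.41, adjusted p = 0.344), with 219.8 ± 53.3 in SS and 93.5 ± 22.8 in BN control lungs on the first (SD, n = 3 each). A Cd8a probe set too dim to be kept had 114.5, 110.5 and 30.8 in SS control lungs, against 27.6, 12.7 and 12.7 in BN control lungs, a difference of 1.48 ± 0.35 in a fit without the filter (adjusted p = 0.0276). The remaining Cd8a probe set, also dim, differed by 0.04. Cd3e (0.03 ± 0.18) and Cd3d (-0.05 ± 0.16) did not pass. The strain differences of Gzmb and Cd8a thus varied between probe sets of the same gene. Whether the probes of the 10 genes match both strains equally was not tested.

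In HTV lungs 2 of the 10 genes were higher in SS than in BN, Gzmb by 1.27 ± 0.28 (adjusted p = 0.0152) and Cd8a by 0.88 ± 0.21 (adjusted p = 0.0211), where 3.82% of all probe sets were called higher. SS HTV arrays lay wholly above BN HTV arrays for 5 of 10 genes (Gzma, Gzmb, Klrb1a, Lck and Cd8a) and for 15.3% of all probe sets. Gzma differed by 0.32 ± 0.14 (adjusted p = 0.185), and the second Gzmb probe set by 0.60 (adjusted p = 0.207). The count was 0 without SS HTV 3 or BN HTV 2, and 1 without SS HTV 2 or BN HTV 1. In SS arrays the 5-prime to 3-prime signal ratio of beta-actin, a measure of RNA integrity, ran from -1.41 (SS control 3) to -0.23 in log2. In BN arrays it ran from -1.47 to -0.88. With this ratio as a covariate the count was 0 in HTV lungs and 2 in control lungs. For the brightest Cd8a probe set the order of the means was SS control, SS HTV, BN control and BN HTV. The SS groups overlapped and every SS array lay above every BN array. The dim Cd8a probe set that differed by 1.48 in control lungs differed by 1.26 ± 0.35 in HTV lungs. It did not pass there in the limma fit without the filter (adjusted p = 0.0627). The remaining dim Cd8a probe set differed by 0.10 in HTV lungs, with overlapping arrays.

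**Figure D3:**
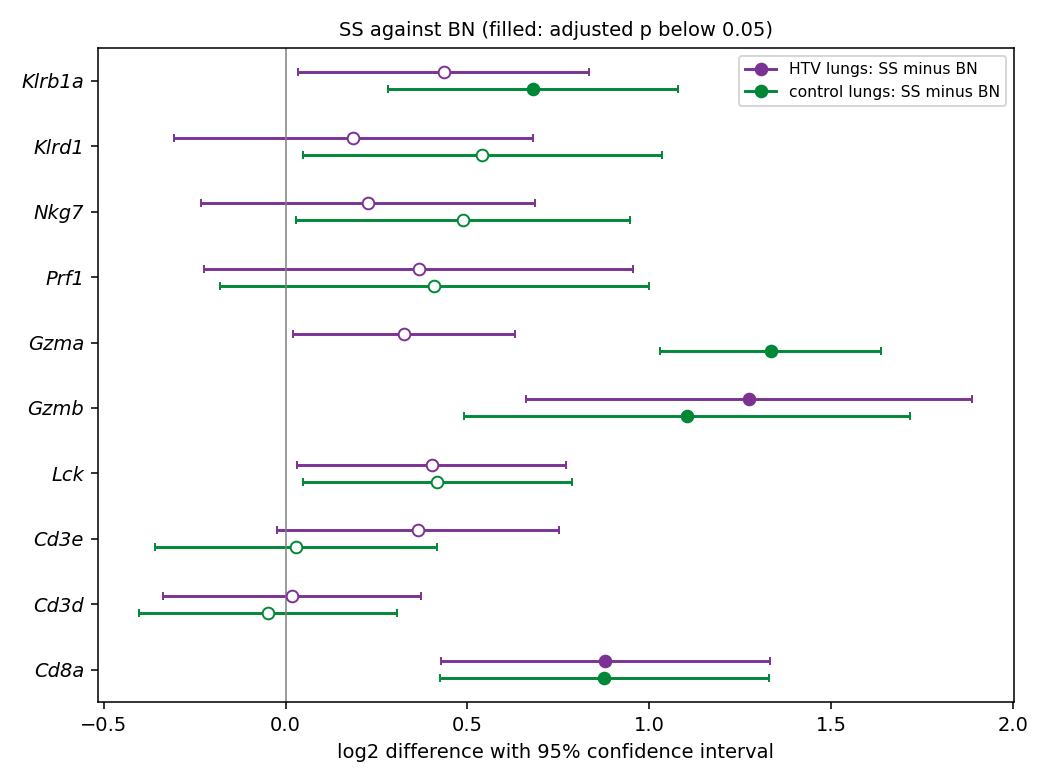
SS minus BN differences of the 10 genes on the log2(intensity + 16) scale (horizontal axis) with 95% confidence intervals, in HTV lungs and in control lungs; filled points passed the test. Gzma is at 0.32 in HTV lungs and at 1.33 in control lungs, while Gzmb and Cd8a are filled in both.

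A further 6 lists of T and NK cell genes held 112 entries, of which 47 had a probe set bright enough to be tested. With HTV in SS lungs 4 of the 47 fell and 0 rose (median -0.07, beside -0.01 over all genes), and in BN lungs 4 fell and 2 rose (median -0.13, beside -0.03). Over both strains 8 fell and 4 rose. Of all probe sets 4.16% were called lower and 3.91% higher in SS, 2.86% lower and 2.96% higher in BN, and 8.71% lower and 7.02% higher over both strains. Leaving out SS control 3, the counts of the 47 were 5 lower and 0 higher in SS, 7 lower and 2 higher in BN, and 11 lower and 4 higher over both strains. The members of the lists thus moved both ways, with most not past the test.

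Of the list of T cell receptor, CD3 chain and co-receptor genes 6 of 19 entries were tested and 0 passed in any comparison, as with Cd3e and Cd3d, while without SS control 3 Cd4 was higher in SS than in BN HTV lungs (0.66, adjusted p = 0.0295). Their summed intensity was 633 to 680 in SS HTV lungs, against 539 to 669 in SS control lungs, and 550.4 to 586 in BN HTV lungs, against 615 to 647 in BN control lungs. Of 8 tested genes of T cell receptor signalling the kinase Fyn rose by 0.31 ± 0.08 over both strains (adjusted p = 0.015). Of 8 tested genes of cytotoxic granules Gzmm, which encodes granzyme M, fell by -0.93 ± 0.19 over both strains (adjusted p = 0.00557). Gzmm had 98.7, 86.9 and 76.6 in SS HTV lungs, against 222.1, 228.7 and 105.3 in SS control lungs, and 34.0, 17.7 and 52.2 in BN HTV lungs, against 93.9, 73.5 and 71.6 in BN control lungs. As with Prf1, SS control 3 was the lowest SS control. Rab27a, which docks granules in lymphocytes and in other secretory cells, rose by 0.55 ± 0.11 in BN (adjusted p = 0.0105). Of the NK receptor genes 4 of 25 entries were tested, and Klrb1b, an inhibitory NKR-P1 receptor of the rat and a relative of Klrb1a, rose by 0.74 ± 0.17 over both strains (adjusted p = 0.009). Klrb1b had 123.1, 64.6 and 90.8 in SS HTV lungs, against 43.5, 55.1 and 49.8 in SS control lungs, and 110.7, 66.3 and 77.5 in BN HTV lungs, against 27.7, 41.9 and 60.9 in BN control lungs. It thus went the opposite way to Klrb1a.

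Of 11 tested transcription factors of T and NK cells 4 fell over both strains, where 8.71% of all probe sets were called lower: Ikzf2, which encodes Helios, by -0.68 ± 0.10 (adjusted p = 0.000528), Tcf7, which encodes TCF-1, by -0.53 ± 0.10 (adjusted p = 0.00245), Gata3 by -0.58 ± 0.13 (adjusted p = 0.00837) and Bcl11b by -0.37 ± 0.10 (adjusted p = 0.0205). These factors act mainly in T cell development and identity. Tcf7 had 206.0, 240.6 and 202.7 in SS HTV lungs, against 295.2, 314.7 and 287.6 in SS control lungs, and 203.2, 193.3 and 276.5 in BN HTV lungs, against 385.2, 368.5 and 304.8 in BN control lungs, with no overlap in either strain. Gata3 had 58.5, 63.7 and 61.5 in BN HTV lungs, against 122.0, 170.6 and 106.7 in BN control lungs, and overlapped in SS. Gata3 was also lower in SS than in BN control lungs (-0.65 ± 0.18, adjusted p = 0.0353), where 6.41% of all probe sets were called lower, but not without SS control 3 (-0.49, adjusted p = 0.0973).

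Of 10 tested genes of lymphocyte traffic and cytokine receptors 3 fell over both strains, beside 8.71% of all probe sets, and 1 rose. Cxcr4, the receptor of the chemokine CXCL12, had 372.3, 420.8 and 254.1 in SS HTV lungs, against 836.7, 781.1 and 656.8 in SS control lungs, and 408.2, 357.7 and 504.6 in BN HTV lungs, against 853.1, 809.4 and 643.0 in BN control lungs, without overlap. It fell by -1.11 ± 0.18 in SS (adjusted p = 0.00271) and by -0.84 ± 0.18 in BN (adjusted p = 0.0154). Ccl5, a chemokine made by cytotoxic lymphocytes, had 458.8, 500.4 and 471.6 in SS HTV lungs, against 1002.5, 1195.8 and 593.1 in SS control lungs, and fell there by -0.88 ± 0.22 (adjusted p = 0.0274). Il2rb, the receptor chain shared by interleukins 2 and 15, fell by -0.52 ± 0.12 in SS (adjusted p = 0.0214). S1pr1, a receptor that lets lymphocytes leave tissue and that endothelium also carries, rose by 0.46 ± 0.08 over both strains (adjusted p = 0.00211). Without SS control 3 the SS differences were -1.20 for Cxcr4, -1.17 for Ccl5 and -0.61 for Il2rb, and all 3 passed (adjusted p = 0.00233 to 0.014).

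Between the strains, Itgal, the alpha chain of the integrin LFA-1, differed most in these lists. It had 805.9, 724.7 and 462.4 in SS control lungs, against 59.8, 65.3 and 51.2 in BN control lungs (3.15 ± 0.20, adjusted p = 8.6e-07), and 843.1, 596.8 and 705.1 in SS HTV lungs, against 65.1, 43.3 and 49.2 in BN HTV lungs (3.41 ± 0.20, adjusted p = 3.48e-07). Whether the probes match both strains equally was not tested. Ccl5 was higher in SS than in BN control lungs by 0.98 ± 0.22 (adjusted p = 0.0134), and Gzmm by 1.01 ± 0.27 in control lungs (adjusted p = 0.0302) and by 1.08 ± 0.27 in HTV lungs (adjusted p = 0.0279). With SS control 3 left out the differences in control lungs were 3.39 for Itgal, 1.27 for Ccl5 and 1.34 for Gzmm, and all 3 passed (adjusted p = 1.46e-07 to 0.00408). The interaction passed for 0 of the 47 genes by limma.

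**Figure D4:**
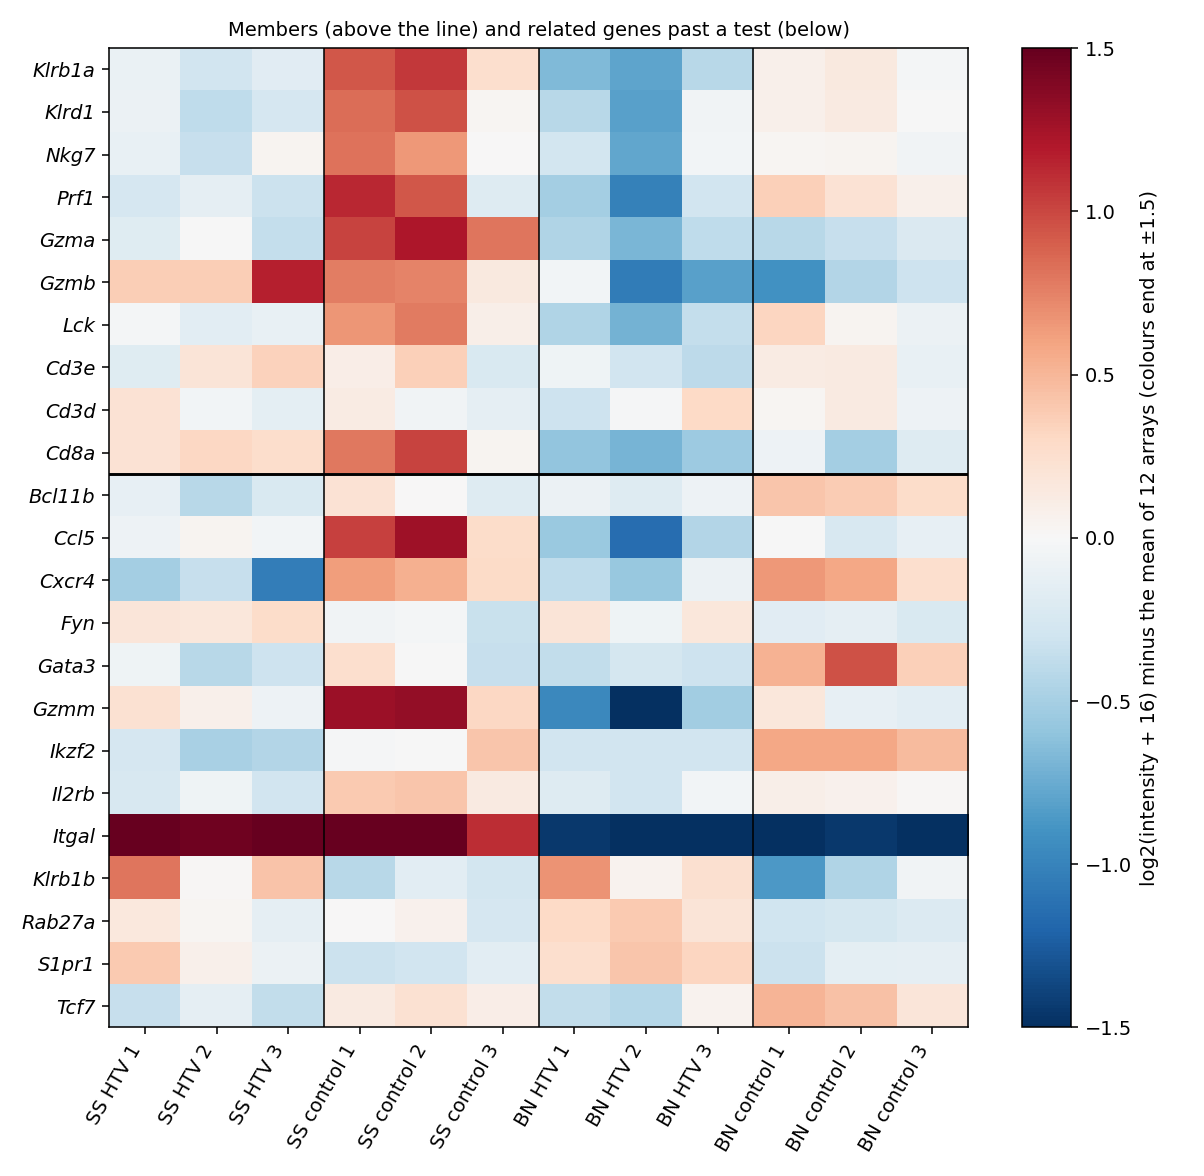
Log2(intensity + 16) of each gene minus its mean over the 12 arrays (colour, ending at ±1.5), with the 10 genes above the line and the 13 related genes past the test in any comparison below it; columns are single arrays by group. SS control 1 and 2 are deep red for Klrb1a, Prf1, Gzmm and Ccl5. SS control 3 is paler for Klrb1a, Gzmm and Ccl5 and below the mean for Prf1. Klrb1b and S1pr1 are higher with HTV, and Itgal separates the strains.

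Markers of other cells moved with HTV as well. The 7 neutrophil markers tested summed to 5377 to 7783 in SS HTV lungs, against 1542 to 2443 in SS control lungs, and to 2984 to 8411 in BN HTV lungs, against 1089 to 1799 in BN control lungs. Of them 4 rose in SS and 5 in BN, where 3.91% and 2.96% of all probe sets were called higher, in that order. BN HTV 3 had the lowest neutrophil sum of the HTV arrays. It was the highest of its group in 8 of the 10 T and NK cell genes. BN HTV 2, the lowest in 8 of the 10, had a sum of 7993, below the 8411 of BN HTV 1. SS HTV 2 had the lowest sum of the SS HTV arrays (5377) and was the lowest in 5 of the 10. General leukocyte markers did not pass in any comparison (0 of 7) and summed to 4408 to 5248 in SS HTV lungs, against 4299 to 4925 in SS control lungs, and to 4069 to 5469 in BN HTV lungs, against 4173 to 4840 in BN control lungs. B cell markers summed to 1059 to 1201 in SS HTV lungs, against 1002 to 1439 in SS control lungs, and to 859 to 1218 in BN HTV lungs, against 1359 to 1757 in BN control lungs. Of 6 B cell markers tested 1 fell in SS, where 4.16% of all probe sets were called lower. This was Ms4a1, which encodes CD20 (-0.88 ± 0.23, adjusted p = 0.0343), and it did not pass without SS control 3 (-0.63, adjusted p = 0.108). Over both strains 1 of the 6 fell, beside 8.71% of all probe sets, and 3 without SS control 3. Of 9 macrophage markers 0 passed with HTV in either strain or over both. Red cell and platelet markers moved up with HTV, with a median of 1.04 over both strains beside -0.02 over all genes. Of the 5 tested 3 rose, beside 7.02% of all probe sets, and 4 without SS control 3. These were the platelet genes Pf4 (1.08 ± 0.18, adjusted p = 0.00133) and Itga2b (0.55 ± 0.15, adjusted p = 0.0246) and the haem synthesis gene Alas2 (1.07 ± 0.34, adjusted p = 0.0496), and the haemoglobin gene Hbb was added without SS control 3. The summed level of the 5 was 3414 to 5202 in SS HTV lungs, against 1222 to 5192 in SS control lungs, with SS control 3 the highest control, and 2829 to 4405 in BN HTV lungs, against 860 to 2966 in BN control lungs. In SS alone Pf4 rose (1.25 ± 0.26, adjusted p = 0.011). Between strains, 4 of 9 macrophage markers were higher in SS than in BN control lungs, where 5.84% of all probe sets were called higher. The endothelial markers Vwf (-0.89 ± 0.12, adjusted p = 0.000643) and Pecam1 (-0.52 ± 0.11, adjusted p = 0.00948), 2 of 7 tested, were lower there, beside 6.41% of all probe sets. The part of these other cells in the T and NK cell results was not tested.

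The way the genes varied together from array to array is given as a description, since the 6 genes that fell were picked for moving the same way. Over the 12 arrays the 15 pairs among these 6 had Pearson correlations of 0.74 to 0.97 (median 0.93). For deviations from the group means the median was 0.87, and it was 0.70 without SS control 3. With the 6, Gzmb had a median correlation of 0.50, Cd3e of 0.50, Cd3d of 0.18 and Cd8a of 0.78. For the deviations these medians were 0.37 for Gzmb, 0.42 for Cd3e, 0.36 for Cd3d and 0.75 for Cd8a, and without SS control 3 they were 0.01 for Gzmb, -0.08 for Cd3e, 0.30 for Cd3d and 0.21 for Cd8a. Within groups the shared variation of these 4 genes with the 6 thus rested largely on SS control 3, Cd3d excepted. All points of a correlation share the arrays and their quality, and SS control 1 and 2 are the highest points for most of the genes. Among 10443 tested genes outside the lists, the 5 most like the mean of the 10 genes over the 12 arrays were Apol3-ps1 (r = 0.96), Tbxa2r, the thromboxane receptor gene (r = 0.96), Ahr, the aryl hydrocarbon receptor gene (r = 0.96), Rnase6, a ribonuclease gene (r = 0.95), and Plxna1, a semaphorin receptor gene (r = 0.94). They were chosen for this likeness.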

How the data were processed

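RNA of right lungs from 12 rats was measured on Affymetrix rat arrays, per the labels' protocols after Trizol extraction and biotin labelling of 6 µg of total RNA. The deposited unit is linear intensity, 1 value for each probe set and array. Per the submitters' processing notes the software was MAS5; its version and target scaling are not stated. Detection calls were not used. Groups come from the labels, which give 3 arrays per group, state no batch and link no array to one of another group. The replicate numbers used here count the arrays within each group and pair nothing between groups.

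Of 31099 probe sets 57 controls were left out. A platform annotation gave 20826 of the others 1 gene, 436 several and 9780 none; genes were named from single names, and all 10 symbols matched RefSeq. Intensities were taken as log2(intensity + 16). The dimmest probe sets, below the 40th percentile of mean level (intensity near 42.2), were dropped, which left 18625 for 10554 genes. A single limma fit (version 3.58.1, R 4.3.3; lmFit, then eBayes with trend, 8 residual degrees of freedom) took all 12 arrays, with a mean per group, with Benjamini-Hochberg adjustment per comparison. The fit was tested on simulated data. Alternatives changed the pseudocount, filter, normalization, variance model, probe set choice, RNA quality covariate and arrays used. The genes, lists, tests and alternatives were chosen with earlier results of these data known; related genes and markers were named when past the test, at most 4 per list and comparison by smallest p.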

Additional observations from a re-analysis of the deposited data

How the results depend on the processing

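The number of arrays limits the precision, and depth and distance from background are unknown for MAS5 intensities without detection calls. No paired analysis was possible because the labels link no arrays between groups. The cause of the changes below was not tested. Of the 10 genes the number past the test was, for SS HTV against SS control, 4 as reported, 2 without a filter, 2 with only the arrays compared, 7 with array weights, 7 without SS control 3 and BN HTV 3 together, and 2 to 7 leaving out 1 array. For BN HTV against BN control it was 1 as reported, 0 without a filter, 0 with a pseudocount of 64, 3 with array weights, 3 with only the arrays compared, 4 without both arrays, and 0 to 3 leaving out 1 array. For SS against BN control it was 4 as reported, 8 with array weights, 2 with only the arrays compared, 2 with the beta-actin covariate, 8 without both arrays, and 1 to 8 leaving out 1 array. For SS against BN HTV it was 2 as reported, 1 with the 60th percentile filter, 1 with the mean over probe sets, 0 with the beta-actin covariate, 4 without both arrays, and 0 to 3 leaving out 1 array. Over both strains it was 6 as reported and 5 to 7 leaving out 1 array, and the interaction gave 0 throughout.

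Of the 47 related genes the number past the test in the SS comparison was 4 as reported, 8 with array weights, 1 with only the arrays compared and 1 to 6 leaving out 1 array. In BN it was 6, and 3 to 9 leaving out 1 array. Between strains in control lungs it was 4, 2 with the 60th percentile filter, 9 with array weights and 1 to 5 leaving out 1 array. Between strains in HTV lungs it was 2, 1 with a pseudocount of 64, the 60th percentile filter or the beta-actin covariate, 4 with array weights, only the arrays compared or both arrays left out, and 1 to 5 leaving out 1 array. Over both strains it was 12, 7 with the 60th percentile filter and 12 to 15 leaving out 1 array.

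Differences that were not past the test changed sign under some settings. For HTV in SS, Gzmb was -0.078 with array weights and -0.116 with both arrays left out. Cd3e was -0.0115 with quantile normalization, -0.0260 with median centring, -0.0991 with array weights and -0.113 with both arrays left out. Cd3d was -0.0362 with quantile normalization, -0.0395 with median centring, -1.89e-05 with array weights and -0.0297 with both arrays left out. For HTV in BN, Gzmb was 0.00458 with the beta-actin covariate and 0.00605 with both arrays left out. Over both strains Gzmb was -0.00661 with a pseudocount of 1, -0.0151 with median centring, -0.0424 with array weights and -0.0550 with both arrays left out. For the interaction, Gzmb was -0.0712 with array weights and -0.122 with both arrays left out, and Cd3d was -0.0217 with quantile normalization and -0.0304 with median centring. Cd8a was -0.0601 there with a pseudocount of 64, -0.0494 with quantile normalization, -0.0926 with median centring, -0.231 with array weights, -0.118 with the beta-actin covariate and -0.253 with both arrays left out. Between strains in control lungs, Cd3e was -0.137 with the beta-actin covariate, and Cd3d was 0.0511 with quantile normalization, 0.0498 with median centring and 0.00778 with both arrays left out. Between strains in HTV lungs, the beta-actin covariate gave -0.0105 for Prf1, -0.0487 for Klrd1 and -0.00488 for Nkg7, where the reported differences were 0.37, 0.19 and 0.23 in that order.

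Leaving out 1 array, the SS HTV difference ran from -0.179 to 0.223 for Gzmb, -0.113 to 0.191 for Cd3e and -0.0790 to 0.104 for Cd3d. That in BN ran from -0.382 to 0.124 for Gzmb and -0.195 to 0.110 for Cd3d, and that over both strains from -0.147 to 0.106 for Gzmb and -0.0848 to 0.0677 for Cd3d. The interaction ran from -0.0944 to 0.470 for Gzmb, -0.449 to 0.210 for Prf1, -0.227 to 0.119 for Lck, -0.0849 to 0.220 for Cd3d and -0.286 to 0.201 for Cd8a. Between strains it ran from -0.112 to 0.181 for Cd3e and -0.117 to 0.00828 for Cd3d in control lungs, and from -0.00906 to 0.374 for Klrd1 and -0.132 to 0.173 for Cd3d in HTV lungs.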
